A study of Saccharomyces cerevisiae with 54 samples.

Results

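Cells of the MMTT strain of budding yeast were compared 1 h 10 min after transfer to sporulation medium with the same strain at 0 h, the start of sporulation. The comparison rests on the 3 libraries of MMTT at 1 h 10 min and the 3 libraries of MMTT at 0 h, which are 6 of the 54 libraries in the series and were chosen by strain and time alone. MMTT is a diploid of the S288c background in which MKT1 carries 89G and TAO3 carries 4477C, the alleles of the efficiently sporulating strain SK1. SS is the S288c diploid with 89A in MKT1 and 4477G in TAO3, and it serves below for a comparison of the changes in the 2 strains. All cells were grown in rich medium with glucose, then in rich medium with acetate, and were moved to sporulation medium, which holds 1% potassium acetate and supplements of amino acids. For its assay of sporulation the study names histidine, leucine, methionine and lysine, with uracil, as the supplements of that medium. The changes below therefore set cells kept in that medium against cells taken from growth on acetate. Each genotype was studied as 1 strain. The labels do not say whether replicates came from separate cultures, so p-values measure only the spread between these libraries. Whole cultures were measured, so fewer cells expressing a gene and less RNA per cell cannot be told apart.

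Diploid yeast enters meiosis when nitrogen and a fermentable carbon source are both missing and respiration is possible. The transcription factor Ime1 then turns on early meiotic genes, whose promoters often hold a repressor element named URS1, and the later factor Ndt80 turns on genes for the meiotic divisions and the spore wall. Starvation for amino acids acts through Gcn4, an activator of amino acid biosynthesis genes. Growth on acetate needs gluconeogenesis and the glyoxylate cycle, which shares enzymes with the citric acid cycle.

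The libraries at 1 h 10 min held 4466300, 3184082 and 4348341 counted reads, against 3493148, 3052744 and 3236827 at 0 h. Between 6253 and 6316 genes had reads in each, and the 10 most abundant genes took 7.42 to 8.78% of the reads. Replicate libraries correlated with r between 0.975 and 0.985 on the log2 scale over genes, which are not independent replicates, and every pair differed by more than counting error. MKT1, which encodes a protein of post-transcriptional regulation, had 123, 116 and 129 CPM (reads scaled to the size of the library) at 1 h 10 min, against 141, 131 and 119 CPM at 0 h. TAO3, a scaffold of the RAM signalling network, had 157, 155 and 166 CPM at 1 h 10 min, against 179, 159 and 120 CPM at 0 h. Neither gene passed the test (MKT1 log2 fold change -0.08, edgeR adjusted p = 0.743; TAO3 0.06, edgeR adjusted p = 0.791), and counts per gene do not show the alleles themselves. The 20 haploid-specific and mating genes, which MATa/MATα diploids keep low, summed to 313 to 345 CPM at 1 h 10 min, against 343 to 359 CPM at 0 h. NEJ1 and RME1 rose among them, and FUS1 fell past 4-fold, the only member of the list to change that much.

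A gene was called when its level differed with a p under 0.05 in the quasi-likelihood test of edgeR, adjusted over the whole table by the Benjamini-Hochberg method, and by a log2 fold change beyond 2, which is a 4-fold change. At 1 h 10 min 51 of 6419 genes tested (0.795%) were called higher than at 0 h and 56 (0.872%) lower. The R64 genome annotation does not list 7 of the 51 and 10 of the 56, nor 665 of the 6571 genes in the whole count table. Without the demand for a 4-fold change, 1026 genes (16%) rose and 1078 (16.8%) fell, and the median log2 fold change over all genes tested was -0.01. "Rose" and "fell" below mean this wider call, and a change past 4-fold is named as such. With only the 6 libraries in the fit, 79 genes were called higher and 56 lower. The 3 libraries at 1 h 10 min lay wholly above or below the 3 at 0 h in 106 of the 107 called genes, against 50.5% of all genes tested. The exception was COB, a mitochondrially encoded cytochrome, with 5.39, 3.16 and 0.905 CPM at 1 h 10 min, against 0, 0 and 0.969 CPM at 0 h. In 2 called genes a group held no reads: YOL166C had 7 counts in the 3 libraries at 1 h 10 min and 0 at 0 h, and YFL012W-A had 0 counts at 1 h 10 min and 8 at 0 h.

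The 2 largest fitted rises among called genes with reads in both groups and no overlap were those of MRH1 and YER053C-A. MRH1 (chrIV:508147-509109, R64 build, plus strand), a plasma membrane protein related to the heat shock protein Hsp30, had 293, 246 and 346 CPM at 1 h 10 min, against 17.9, 9.37 and 14.5 CPM at 0 h. The groups did not overlap, and the log2 fold change was 4.39 (SE 0.44, edgeR adjusted p = 4.34e-07). YER053C-A (chrV:260933-261046, minus strand), a small protein of unknown function, had 126, 143 and 120 CPM at 1 h 10 min, against 6.68, 6.94 and 10.99 CPM at 0 h. That is a log2 fold change of 3.98 (SE 0.23, edgeR adjusted p = 6.03e-10). YNR068C rose with a log2 fold change of 3.73. YIL060W had a log2 fold change of 3.63, a value that is uncertain because the gene has near-identical copies and overlaps YIL059C on the opposite strand.

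**Figure D1:**
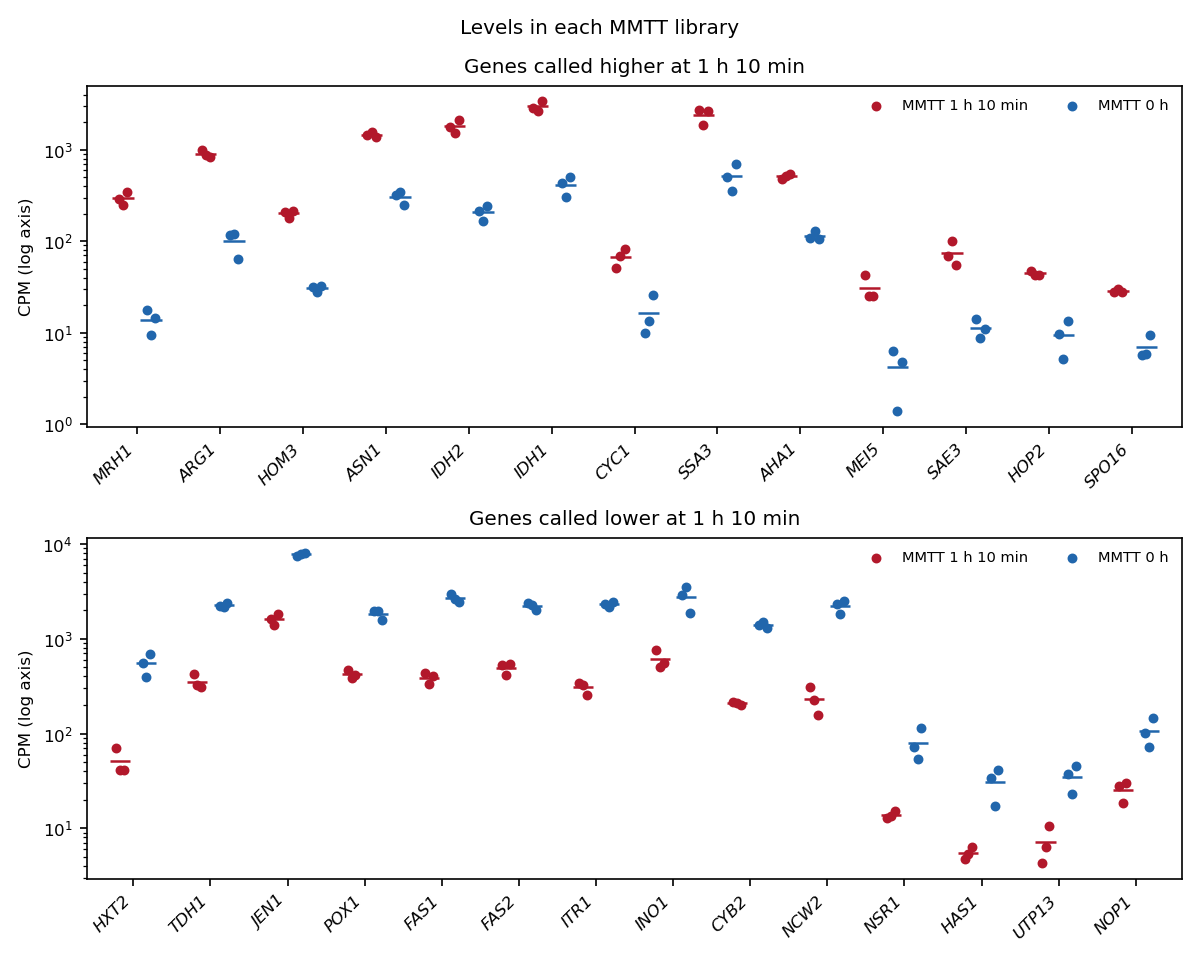
Level of named genes in each MMTT library, in CPM on a log axis, with libraries at 1 h 10 min left of those at 0 h in each panel; each point is 1 library and each bar the mean. ARG1 stands between 824.5 and 988 CPM at 1 h 10 min, above the 63.3 to 119 CPM at 0 h, and FAS1 between 333 and 432 CPM, below the 2431 to 3004 CPM at 0 h.

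The arginine and histidine pathways were the amino acid lists in which every gene rose. All 9 genes of arginine biosynthesis rose, with a median log2 fold change of 1.64, and 2 of them past 4-fold. The calls of ARG4 and ARG7 were the weakest and were lost without some of the libraries, among them replicate 1 at 1 h 10 min (edgeR adjusted p = 0.0566 and 0.0957). ARG1 (chrXV:219211-220473, plus strand), which encodes argininosuccinate synthetase, had 988, 869 and 824.5 CPM at 1 h 10 min, against 117, 119 and 63.3 CPM at 0 h. The log2 fold change was 3.16 (SE 0.31, edgeR adjusted p = 2.77e-07), and every library at 1 h 10 min was above every library at 0 h. All 7 genes of histidine biosynthesis rose too, by a median of 1.45 and none past 4-fold. HIS4, a multifunctional enzyme of the pathway, had 731, 697 and 674.5 CPM at 1 h 10 min, against 292, 293 and 254 CPM at 0 h.

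The other lists moved in part: 8 of 14 aromatic amino acid genes rose and 1 fell, 6 of 10 branched-chain genes rose and 0 fell, and 3 of 7 lysine genes rose and 0 fell. HOM3 and ASN1 are in none of these lists and were picked after their values were seen. HOM3, aspartate kinase and the start of the threonine and methionine branch, had 209, 181 and 214 CPM at 1 h 10 min, against 31.3, 27.8 and 32.6 CPM at 0 h (log2 fold change 2.72, SE 0.28, edgeR adjusted p = 4.79e-07). ASN1, an asparagine synthetase, had 1457, 1553 and 1382 CPM at 1 h 10 min, against 319, 350 and 251 CPM at 0 h, a log2 fold change of 2.26 (edgeR adjusted p = 8.87e-07). Neither gene's groups overlapped. GCN4 itself rose less, to 2656, 2453 and 2383 CPM at 1 h 10 min, against 1374, 1274 and 1572 CPM at 0 h (log2 fold change 0.83, SE 0.19, edgeR adjusted p = 0.00246). Gcn4 is controlled mainly at translation, which these counts do not measure. Not every anabolic pathway went up: 6 of 18 genes of sulfate assimilation and methionine synthesis fell and 0 rose (median -0.33), as did 5 of 11 purine genes with 0 rising (median -0.50). SAM2, an S-adenosylmethionine synthetase, had 35.1, 24.6 and 34.2 CPM at 1 h 10 min, against 110, 119 and 96.6 CPM at 0 h. In the list of one-carbon metabolism 4 of 8 genes fell and 1 rose, with GCV2 of the glycine cleavage system at -1.29.

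Promoters of 4 genes that rose are shown because they hold the core of the Gcn4 site, TGACTC on either strand, within 300 bases before the coding start. The core was found in 8 of 9 arginine promoters (88.9%), 6 of 7 histidine promoters (85.7%) and 7 of 10 branched-chain promoters (70%), but in 5 of 14 aromatic (35.7%) and 2 of 7 lysine promoters (28.6%). Of the 42 promoters read among called higher genes 8 held it (19%), as did 7.77% of all 6001 promoters. It was also found in 9 of 11 purine promoters (81.8%), a list in which 0 genes rose. A match is a description of these letters and not evidence of binding. The 60-base stretches below, from the RefSeq R64 genome and written 5′ to 3′ on the gene's strand, carry the match in capitals. They lie at chrXV:218911-218970 (ARG1, plus strand), chrIII:68500-68559 (HIS4, minus strand), chrV:258199-258258 (HOM3, minus strand) and chrXVI:822366-822425 (ASN1, plus strand).
ARG1: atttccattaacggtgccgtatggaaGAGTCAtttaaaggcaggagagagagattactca
HIS4: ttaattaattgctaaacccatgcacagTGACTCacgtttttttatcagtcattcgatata
HOM3: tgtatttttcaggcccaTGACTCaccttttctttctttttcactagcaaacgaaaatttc
ASN1: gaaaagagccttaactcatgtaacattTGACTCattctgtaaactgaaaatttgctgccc

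Mitochondrial oxidation genes also rose, led by the enzyme that makes 2-oxoglutarate. Isocitrate dehydrogenase is built of Idh1 and Idh2. IDH1 (chrXIV:557920-559002, minus strand) had 2894, 2683 and 3370 CPM at 1 h 10 min, against 429, 308.5 and 499.8 CPM at 0 h (log2 fold change 2.85, SE 0.16, edgeR adjusted p = 6.03e-10). IDH2 (chrXV:580250-581359, plus strand) had 1774, 1529 and 2098 CPM at 1 h 10 min, against 213, 167 and 245 CPM at 0 h (log2 fold change 3.11, SE 0.22, edgeR adjusted p = 2.92e-09). The 2 subunits thus changed by nearly the same amount, with no overlap between groups. ACO1, the aconitase upstream of them, had 3521, 3318 and 4779 CPM at 1 h 10 min, against 1368, 1176 and 1103 CPM at 0 h (log2 fold change 1.67). CIT1, MDH1 and FUM1 of the same cycle rose by log2 fold changes of 1.08, 1.36 and 1.14.

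The cycle did not move as a block: 10 of its 15 genes rose and 3 fell, with a median of 0.74. The 3 that fell were LSC1 and LSC2, the subunits of succinyl-CoA ligase, with log2 fold changes of -0.94 and -0.88, and CIT3, a minor citrate synthase, with -0.78. KGD1 (-0.22) and SDH1 (-0.05), of the same cycle, did not pass the test. Of 30 genes of the respiratory chain and ATP synthase, 24 rose and 0 fell (median 0.73). CYC1, iso-1-cytochrome c, had 50.6, 68.9 and 82.1 CPM at 1 h 10 min, against 10.02, 13.5 and 26.2 CPM at 0 h (log2 fold change 2.02, SE 0.27, edgeR adjusted p = 1.12e-05). Outside the lists, CYC7, the second cytochrome c gene, rose by 2.25 and ODC2, a mitochondrial carrier of 2-oxoglutarate, by 2.36. Mitochondrial ribosomal protein genes did not share this: 1 of 54 rose and 12 fell, with a median of -0.19.

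Chaperone genes rose as a group. Of 25 genes of heat shock and protein folding, 21 rose and 0 fell, with a median of 1.35. Their summed level was 34700 to 39111 CPM at 1 h 10 min, against 14525 to 15594 CPM at 0 h. SSA3 (chrII:84499-86448, minus strand), an Hsp70 chaperone, had 2716, 1862 and 2621 CPM at 1 h 10 min, against 500, 357 and 697 CPM at 0 h (log2 fold change 2.21, SE 0.22, edgeR adjusted p = 3.61e-07). AHA1, the activator of the Hsp90 ATPase, had 480, 520 and 548 CPM at 1 h 10 min, against 108, 130 and 107 CPM at 0 h (log2 fold change 2.17, SE 0.14, edgeR adjusted p = 1.47e-09). Groups did not overlap in either. The Hsp90 genes HSC82 and HSP82 rose by 1.80 and 1.74, the Hsp40 gene YDJ1 by 1.99 and the Hsp110 gene SSE1 by 1.85.

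The heat shock element, read as GAANNTTC on either strand, was found in 13 of 25 chaperone promoters (52%) and in 4 of the 42 promoters of called higher genes (9.52%), against 11.5% of all promoters. AHA1 holds it and is shown with its match in capitals, at chrIV:892744-892803 on the plus strand of R64, while SSA3 and MRH1 do not hold these letters in the window.
AHA1: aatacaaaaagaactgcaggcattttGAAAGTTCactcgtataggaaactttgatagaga
The general stress genes, which Msn2 and Msn4 activate through the STRE element AGGGG, were split. Of 20, 6 rose and 6 fell, with a median of 0.14, and SSA3 and HSP26 stand both here and in the chaperone list. CTT1, cytosolic catalase, rose by 1.24 and HSP12, a small membrane-stabilising protein, by 1.04, with 16438, 18397 and 9289 CPM at 1 h 10 min, against 6267, 7298 and 7819 CPM at 0 h. In the list of trehalose and glycogen metabolism 1 of 17 rose and 5 fell. GSY1, a glycogen synthase, had 283, 249 and 236 CPM at 1 h 10 min, against 757, 772 and 646 CPM at 0 h, whereas GLG2, a self-glucosylating initiator of glycogen, rose by 1.22.

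Meiotic genes had begun to move at 1 h 10 min, the early ones upward. IME1 (chrX:604569-605651, minus strand), the activator of early meiotic genes, was already expressed at 0 h and fell: it had 411, 262 and 295 CPM at 1 h 10 min, against 1046, 705 and 1071 CPM at 0 h (log2 fold change -1.54, SE 0.39, edgeR adjusted p = 0.00492). The 3 libraries at 1 h 10 min were below all 3 at 0 h. IME2, the kinase that acts after Ime1, had 177, 125 and 157 CPM at 1 h 10 min, against 304, 337 and 159 CPM at 0 h, and did not pass the test (log2 fold change -0.80, edgeR adjusted p = 0.14). NDT80 likewise did not pass (-0.41, edgeR adjusted p = 0.414). Of 14 regulators of meiotic entry, 3 fell and 0 rose. The other 2 that fell were SUM1, a repressor of middle meiotic genes, at -0.78 and RIM101, a repressor in the pH response, at -0.34, whose call was lost under most alternatives, such as total-count scaling (edgeR adjusted p = 0.139).

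Of 27 early meiotic genes, 16 rose and 0 fell, with a median of 1.04, and 4 of them rose past 4-fold. MEI5 and SAE3 encode the partners of a complex that loads the meiotic recombinase Dmc1. MEI5 (chrXVI:320962-321630, minus strand) had 42.9, 25.0 and 25.1 CPM at 1 h 10 min, against 6.38, 1.39 and 4.85 CPM at 0 h (log2 fold change 2.85, SE 0.54, edgeR adjusted p = 0.000410). SAE3 had 69.9, 99.8 and 55.0 CPM at 1 h 10 min, against 14.3, 8.68 and 10.99 CPM at 0 h (log2 fold change 2.71, SE 0.45, edgeR adjusted p = 0.000123). Both were expressed in all libraries and higher in every library at 1 h 10 min. HOP2, which acts in homologous pairing, had 47.9, 43.3 and 42.8 CPM at 1 h 10 min, against 9.72, 5.205 and 13.6 CPM at 0 h (log2 fold change 2.22). SPO16, which promotes crossovers, rose by 2.02, as did ECM11 of the synaptonemal complex, which is in no list, by 2.36.

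Other parts of the early programme rose less. The cohesin subunit REC8 and the axis proteins RED1 and HOP1 rose by 1.62, 1.601 and 1.28, and SPO11, which makes the breaks that start recombination, by 1.04. DMC1, the recombinase itself, did not pass the test (0.03, edgeR adjusted p = 0.940). The early genes summed to 1195 to 1531 CPM at 1 h 10 min, against 781 to 994 CPM at 0 h, so the groups did not overlap. Of 27 middle meiotic and spore formation genes, 3 rose and 1 fell: SPO21, GIP1 and ADY3 rose and MPC54 fell, with the call of SPO21 lost when all 27 MMTT libraries entered the fit (edgeR adjusted p = 0.111). Of 25 DNA replication genes, 10 rose and 3 fell, with POL1, the catalytic subunit of DNA polymerase alpha, at 61.6, 63.5 and 74.9 CPM at 1 h 10 min, against 20.4, 21.5 and 22.6 CPM at 0 h (log2 fold change 1.63). Among 9 cyclins, CLB5, which acts in premeiotic S phase, rose by 1.13, while 2 fell, among them the G1 cyclin CLN1 at -1.68. Histone genes went the other way from replication genes, and 7 of 10 fell (median -0.87). HTB2, a copy of histone H2B, had 30.8, 26.2 and 32.8 CPM at 1 h 10 min, against 105, 132 and 104 CPM at 0 h (log2 fold change -1.92).

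The URS1 core, read as GCCGCC on either strand, was found in 17 of 27 early meiotic promoters (63%), in 7 of the 42 promoters of called higher genes (16.7%) and in 5.2% of all promoters. It is shown in capitals for the 4 early genes of the list that rose past 4-fold, from R64 at chrXVI:321724-321783 (MEI5, minus strand), chrVIII:262630-262689 (SAE3, minus strand), chrVII:435469-435528 (HOP2, plus strand) and chrVIII:402738-402797 (SPO16, minus strand). ECM11 does not hold these letters in the window.
MEI5: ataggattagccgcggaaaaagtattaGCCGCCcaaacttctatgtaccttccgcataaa
SAE3: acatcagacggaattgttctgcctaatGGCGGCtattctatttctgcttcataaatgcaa
HOP2: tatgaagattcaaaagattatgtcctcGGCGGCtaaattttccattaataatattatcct
SPO16: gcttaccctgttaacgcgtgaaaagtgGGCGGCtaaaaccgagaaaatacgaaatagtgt

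Genes of sugar uptake, lactate and acetate use and fatty acid oxidation stood among the genes that fell. HXT2 (chrXIII:288079-289704, plus strand), a high-affinity glucose transporter, had 70.8, 41.7 and 41.2 CPM at 1 h 10 min, against 558, 394 and 699 CPM at 0 h (log2 fold change -3.42, SE 0.39, edgeR adjusted p = 2.18e-06). Some called genes that the R64 annotation does not list had larger fitted falls than HXT2. HXT6, nearly identical to HXT7 and therefore uncertain by itself, had a log2 fold change of -2.19, whereas HXT5, a transporter made in slow growth, rose by 1.07. Of 12 genes of hexose transport and phosphorylation, 5 fell and 1 rose. Glycolysis was split, with 4 of 16 genes rising and 4 falling. TDH1, a glyceraldehyde-3-phosphate dehydrogenase close in sequence to TDH2, had 420, 321 and 309 CPM at 1 h 10 min, against 2224, 2170 and 2414 CPM at 0 h, while PGK1 and ENO2 rose by 1.52 and 1.04. ENO1, a near copy of ENO2, fell, with a log2 fold change of -1.065, so the value of either copy is uncertain by itself.

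JEN1, the transporter of lactate and pyruvate, had 1634, 1414 and 1819 CPM at 1 h 10 min, against 7563, 7831 and 7955 CPM at 0 h (log2 fold change -2.26, SE 0.16, edgeR adjusted p = 4.73e-09). CYB2, which oxidises lactate, had 216, 212 and 200 CPM at 1 h 10 min, against 1408, 1510 and 1307 CPM at 0 h (log2 fold change -2.75, SE 0.18, edgeR adjusted p = 1.47e-09). In the list of the glyoxylate cycle, acetate use and gluconeogenesis, 3 of 15 genes rose and 5 fell. ALD4 and ACS1, which lead to acetyl-CoA, fell, with log2 fold changes of -1.49 and -1.46, and MLS1, malate synthase, rose by 1.41. Of 16 genes of peroxisomal fatty acid oxidation and carnitine use, 12 fell and 0 rose, with a median of -1.13. POX1, the acyl-CoA oxidase of the pathway, had 467, 385 and 411 CPM at 1 h 10 min, against 1943, 1971 and 1561 CPM at 0 h (log2 fold change -2.12, SE 0.21, edgeR adjusted p = 4.20e-07). FAA2, CTA1 and FOX2 of the same organelle fell too, with log2 fold changes of -1.90, -1.77 and -1.66.

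**Figure D2:**
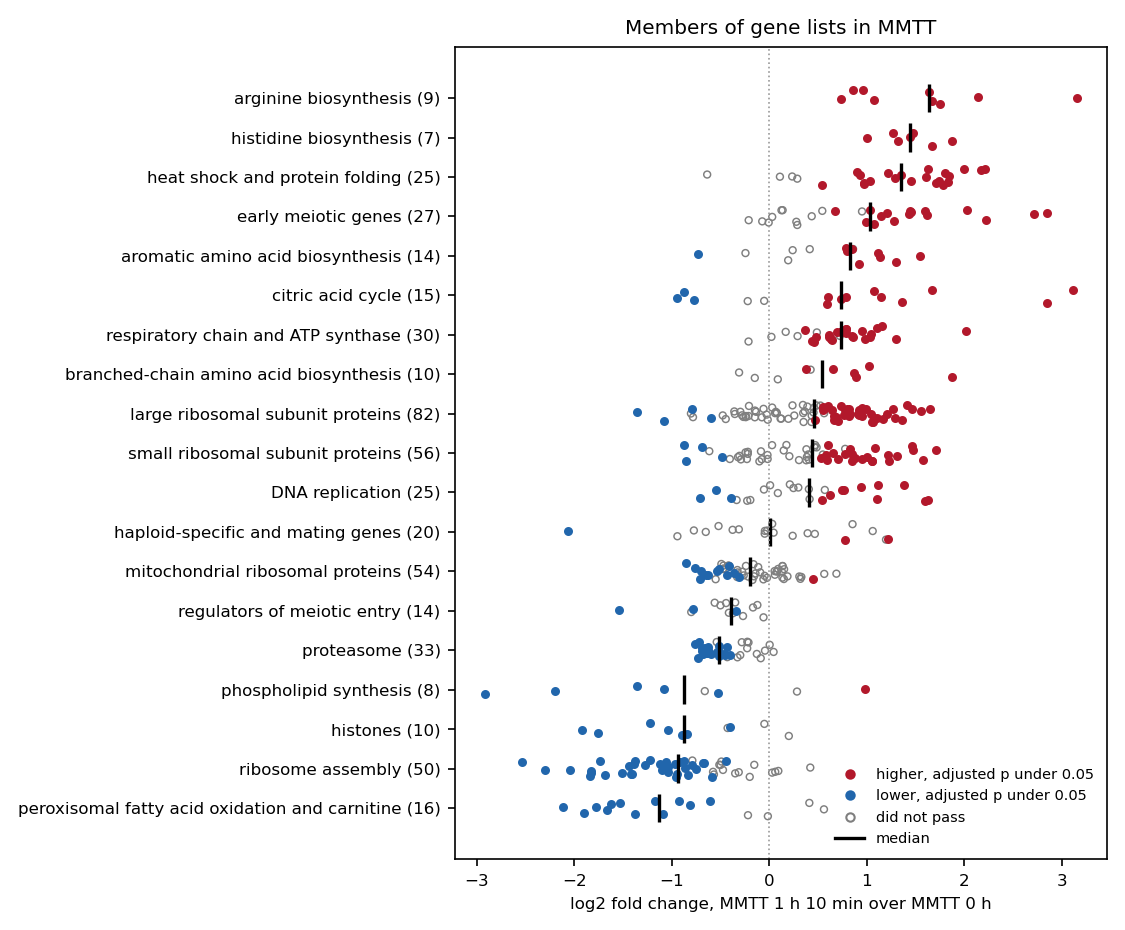
Log2 fold change of MMTT at 1 h 10 min over 0 h for the genes of each list; each point is 1 gene, filled where it passed the test, and the bar is the list's median. Arginine biosynthesis stands at a median of 1.64 and peroxisomal fatty acid oxidation at -1.13.

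FAS1, FAS2 and most phospholipid synthesis genes fell. FAS1 (chrXI:100671-106826, plus strand) and FAS2 encode the 2 subunits of fatty acid synthase, and no list of fatty acid synthesis was drawn up. FAS1 had 432, 333 and 402 CPM at 1 h 10 min, against 3004, 2651 and 2431 CPM at 0 h (log2 fold change -2.79, SE 0.22, edgeR adjusted p = 2.06e-08). FAS2 had 525, 419 and 543 CPM at 1 h 10 min, against 2407, 2258 and 2034 CPM at 0 h (log2 fold change -2.17, SE 0.19, edgeR adjusted p = 1.01e-07). The 2 groups were far apart for both subunits. ITR1 (chrIV:1443713-1445467, minus strand), the main inositol transporter, had 342, 323 and 255 CPM at 1 h 10 min, against 2301, 2174 and 2467 CPM at 0 h (log2 fold change -2.92, SE 0.18, edgeR adjusted p = 6.03e-10). INO1 (chrX:134332-135933, minus strand), inositol-3-phosphate synthase, had 754, 505 and 556 CPM at 1 h 10 min, against 2920, 3538 and 1858 CPM at 0 h (log2 fold change -2.20, SE 0.31, edgeR adjusted p = 2.28e-05).

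Of 8 phospholipid synthesis genes 5 fell and 1 rose, among them CHO1, phosphatidylserine synthase, at -1.36 and PSD1, phosphatidylserine decarboxylase, at -1.08. CDS1, which makes CDP-diacylglycerol and is not in that list, fell, with a log2 fold change of -2.03. These genes are classical targets of Ino2 and Ino4, which bind the element UASINO. An 8-base form of it, CATGTGAA on either strand, was searched for after the values were seen. It was found in 4 of 46 promoters of called lower genes (8.7%), in 4 of 8 phospholipid promoters (50%) and in 0.9% of all promoters. Matches are shown in capitals from R64 at chrX:136080-136139 (INO1, minus strand), chrXVI:108392-108451 (FAS2, plus strand), chrIV:1445655-1445714 (ITR1, minus strand) and chrII:297871-297930 (CDS1, minus strand). FAS1 does not hold these letters in the window.
INO1: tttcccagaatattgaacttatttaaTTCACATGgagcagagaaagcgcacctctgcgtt
FAS2: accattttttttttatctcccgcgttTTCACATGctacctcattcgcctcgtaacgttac
ITR1: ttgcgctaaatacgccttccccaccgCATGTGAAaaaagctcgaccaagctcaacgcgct
CDS1: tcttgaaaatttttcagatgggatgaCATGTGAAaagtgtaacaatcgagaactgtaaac
Ergosterol synthesis was split, with 8 of 19 genes rising and 5 falling. ERG5, a late cytochrome P450 of the pathway, had 178, 159 and 201 CPM at 1 h 10 min, against 27.3, 30.2 and 25.5 CPM at 0 h, a log2 fold change of 2.70.

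Ribosome assembly genes fell, whereas more ribosomal protein genes rose than fell. Of 50 assembly genes, 35 fell and 0 rose, with a median of -0.93, and 3 fell past 4-fold. NSR1 (chrVII:806412-807656, minus strand), a nucleolar protein of pre-rRNA processing, had 12.8, 13.6 and 15.2 CPM at 1 h 10 min, against 72.9, 53.8 and 114 CPM at 0 h (log2 fold change -2.53, SE 0.33, edgeR adjusted p = 8.81e-06). HAS1, an RNA helicase of the same process that the list does not hold, had 4.72, 5.37 and 6.34 CPM at 1 h 10 min, against 33.7, 17.0 and 41.0 CPM at 0 h (log2 fold change -2.48, edgeR adjusted p = 5.84e-06). NOP1, the methyltransferase fibrillarin, had 28.1, 18.3 and 30.1 CPM at 1 h 10 min, against 101, 71.5 and 144 CPM at 0 h (log2 fold change -2.04). In all 3 the libraries at 0 h varied more than those at 1 h 10 min, without overlap. Of 8 genes of RNA polymerase I and its factor, 4 fell and 0 rose.

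The PAC element, read as GATGAG on either strand, is a common mark of assembly gene promoters and was found in 46 of 50 of them (92%) and in 7 of 8 of the polymerase I list (87.5%), against 19.1% of all promoters. Among called lower genes 9 of 46 promoters held it (19.6%). It is shown in capitals for 4 of the genes that fell most, from R64 at chrVII:807811-807870 (NSR1, minus strand), chrIV:427133-427192 (NOP1, plus strand), chrXIII:851660-851719 (HAS1, minus strand) and chrXII:581832-581891 (UTP13, minus strand). UTP13, of the small subunit processome, had 4.27, 6.32 and 10.6 CPM at 1 h 10 min, against 37.1, 22.9 and 45.2 CPM at 0 h (log2 fold change -2.30).
NSR1: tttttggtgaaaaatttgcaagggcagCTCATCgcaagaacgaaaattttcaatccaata
NOP1: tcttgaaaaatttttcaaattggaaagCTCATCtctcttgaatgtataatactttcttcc
HAS1: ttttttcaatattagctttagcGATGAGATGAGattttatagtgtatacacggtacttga
UTP13: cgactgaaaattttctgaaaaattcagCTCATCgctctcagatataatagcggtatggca
Of the proteins of the finished ribosome, 23 of 56 small subunit genes rose and 4 fell, and 37 of 82 large subunit genes rose and 4 fell, with medians of 0.44 and 0.46. Many yeast ribosomal protein genes have a near-identical copy, so values of single genes are uncertain. RPL5 and RPS20 fell, with log2 fold changes of -1.36 and -0.88. Proteasome genes fell in a narrow range: 20 of 33 fell and 0 rose, with a median of -0.51 and no member below -0.76.

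Transport and nutrient genes gave smaller or mixed lists. Of 18 amino acid permease genes, 6 rose and 5 fell. GNP1, a glutamine permease, had 305, 296 and 372 CPM at 1 h 10 min, against 82.0, 86.4 and 69.1 CPM at 0 h (log2 fold change 2.03), and BAP3 rose by 1.98, while ALP1, an arginine transporter, fell, with a log2 fold change of -2.47. Of 23 nitrogen catabolite genes, 10 rose and 4 fell, with PUT1, which starts proline breakdown, at -1.58. ZRT1, the high-affinity zinc transporter, had 850, 884 and 797 CPM at 1 h 10 min, against 151, 107 and 202 CPM at 0 h (log2 fold change 2.46), and 4 of the 7 zinc uptake genes rose with 0 falling. PHO89, which takes up phosphate with sodium, had 2075, 1637 and 1514 CPM at 1 h 10 min, against 4857, 4326 and 4263 CPM at 0 h, in a list of 12 with 2 genes rising and 1 falling.

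Of 15 iron uptake genes 5 rose and 2 fell, of 20 core autophagy genes 3 rose and 3 fell, and of 14 genes of thiamine and vitamin B6 synthesis 3 rose and 2 fell. THI4, of thiazole synthesis, had 28.8, 22.7 and 26.7 CPM at 1 h 10 min, against 86.9, 66.6 and 121 CPM at 0 h. The TIR, DAN and PAU cell wall genes had 2 of 9 rising and 0 falling, and the 3 sodium pump genes had 1 rising and 1 falling, values that are uncertain because the genes are near-identical copies and that were lost for ENA1 without any 1 of the 6 libraries. In the list of MKT1, TAO3 and named regulators, 1 of 15 rose, which was GCN4.

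The changes at 30 min and 1 h 40 min were set beside these, and the 45 min libraries were not compared. Earlier and later changes use the same 0 h libraries and are given side by side only. The median of arginine biosynthesis stood at 2.35 after 30 min, then at 1.64, and then at 1.25 after 1 h 40 min, and that of histidine biosynthesis 1.96, 1.45 and 1.15. The median of chaperone genes was 0.74, 1.35 and 1.79 at these times, that of the citric acid cycle 0.21, 0.74 and 0.85, and that of early meiotic genes 0.63, 1.04 and 1.35. Peroxisomal fatty acid oxidation stood at -1.57, -1.13 and -1.02.

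**Figure D3:**
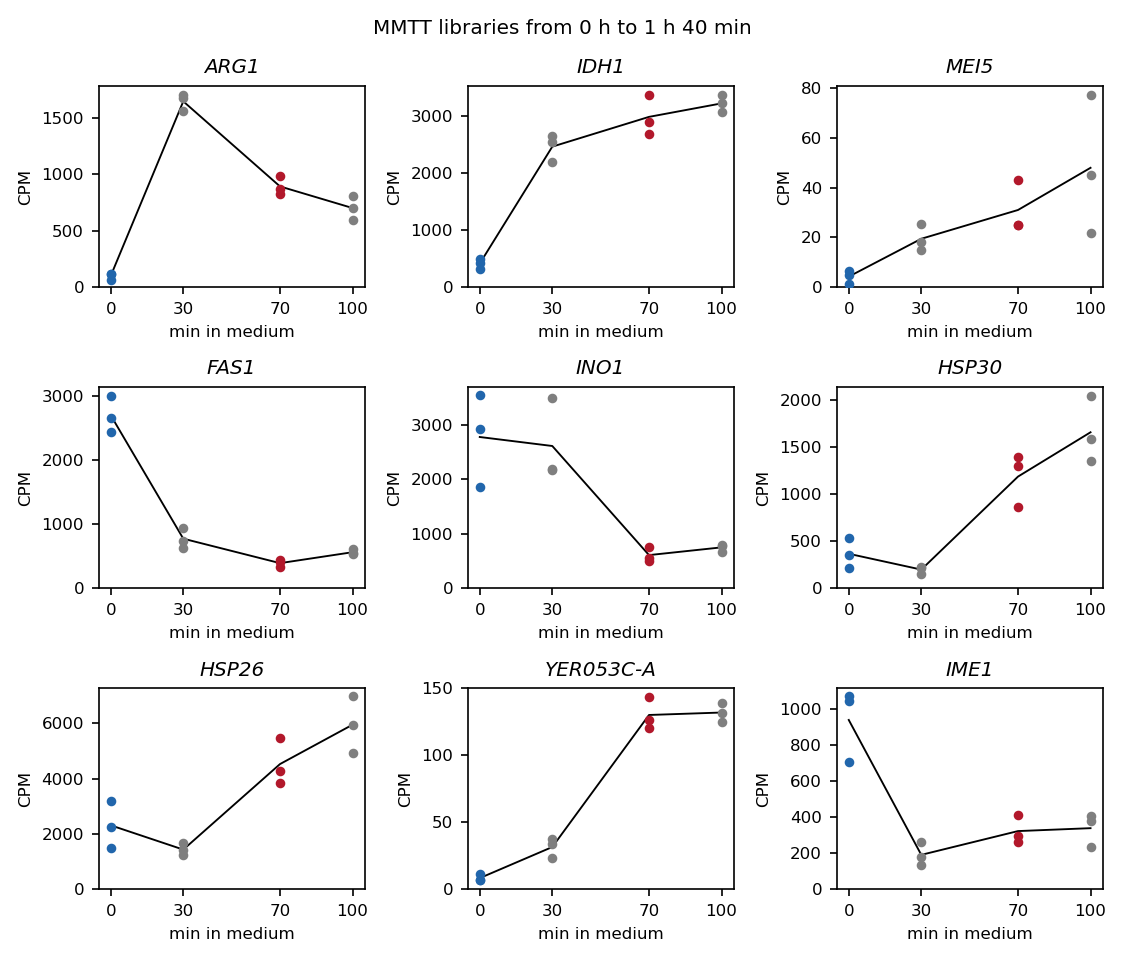
Level of 9 named genes in MMTT, in CPM, against minutes in sporulation medium; each point is 1 library and the line joins the means. HSP30 stands at 153 to 222 CPM at 30 min and at 865 to 1392 CPM at 1 h 10 min, and ARG1 is highest at 30 min.

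Tested directly, few genes differed between 1 h 10 min and 30 min. At 1 h 10 min 2 genes (0.0312%) were called higher than at 30 min and 1 (0.0156%) lower, and without the demand for 4-fold 77 (1.2%) were higher and 107 (1.67%) lower. HSP30, a stress-induced membrane protein, had 1294, 865 and 1392 CPM at 1 h 10 min, against 213, 153 and 222 CPM at 30 min (log2 fold change 2.59, SE 0.28, edgeR adjusted p = 2.04e-05). YER053C-A had 126, 143 and 120 CPM at 1 h 10 min, against 33.4, 23.5 and 37.5 CPM at 30 min (2.04, edgeR adjusted p = 1.72e-05). INO1 had 754, 505 and 556 CPM at 1 h 10 min, against 2165, 2177 and 3478 CPM at 30 min (-2.11, edgeR adjusted p = 0.000826). The groups did not overlap in these 3 genes. By this test 10 of 25 chaperone genes, 7 of 20 general stress genes and 5 of 16 glycolysis genes were higher at 1 h 10 min than at 30 min, with 0 lower in each list. Arginine, histidine, lysine and purine biosynthesis each had 2 genes lower and 0 higher. Aromatic amino acid biosynthesis had 4 of 14 lower, sulfate assimilation and methionine synthesis 4 of 18 and branched-chain biosynthesis 3 of 10, with 0 higher in each. These calls depended on single libraries: HSP30 and YER053C-A gave 1 call without replicate 2 of either time, and INO1 was not called without replicate 2 at 1 h 10 min (0 genes lower) or without replicate 3 at 30 min (1 other gene lower).

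Between 1 h 40 min and 1 h 10 min no gene passed. Of 6419 genes 0 (0%) differed by edgeR's quasi-likelihood test, with 238 at an unadjusted p under 0.05, and DESeq2 called 0 with 251 at an unadjusted p under 0.05. BTN2, a factor for sorting of misfolded protein, had 1033, 974 and 953 CPM at 1 h 40 min, against 479, 419 and 470 CPM at 1 h 10 min, among the smallest p-values of the step (log2 fold change 1.11, edgeR adjusted p = 0.177). IMD2, of GTP synthesis, had a log2 fold change of 1.10 (edgeR adjusted p = 0.177).

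The same interval was measured in SS, which carries the other alleles of both genes. The change in MMTT minus the change in SS was tested in 1 model of both strains, in which SS at 0 h had 2 libraries because replicate 1, with 195492 reads, is not in the set of libraries that the study kept. The change was called higher in MMTT for 9 of 6031 genes (0.149%) and lower for 58 (0.962%), and without the demand for a 4-fold difference for 299 (4.96%) and 337 (5.59%). The median difference over all genes tested was -0.01. Without 1 library at a time the 9 ranged from 2 to 15, with 2 without MMTT 1 h 10 min replicate 2, 3 without SS 1 h 10 min replicate 3, and 5 without replicate 1 of either MMTT time or MMTT 0 h replicate 2. The 58 ranged from 38 to 68, the lowest without SS 1 h 10 min replicate 3.

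Ribosomal protein genes gave the clearest difference in number. All 56 small subunit genes and 72 of 82 large subunit genes rose in SS, and the change was lower in MMTT for 36 and 41 of them and higher for 0. Summed, the small subunit genes had 8419, 9377 and 9109 CPM in MMTT at 1 h 10 min, against 6613, 6208 and 8601 CPM in MMTT at 0 h. In SS the sums were 16007, 16870 and 20313 CPM at 1 h 10 min, against 5762 and 6494 CPM at 0 h. The 2 MMTT groups overlapped and the SS groups did not. Of the 50 ribosome assembly genes, 25 changed lower in MMTT and 0 higher. NSR1 had 12.8, 13.3 and 15.1 CPM in MMTT at 1 h 10 min, against 71.4, 52.9 and 112 CPM in MMTT at 0 h, while SS had 68.7, 69.5 and 95.5 CPM at 1 h 10 min, against 43.9 and 26.5 CPM at 0 h (difference -3.66, SE 0.47, edgeR adjusted p = 4.06e-06).

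**Figure D4:**
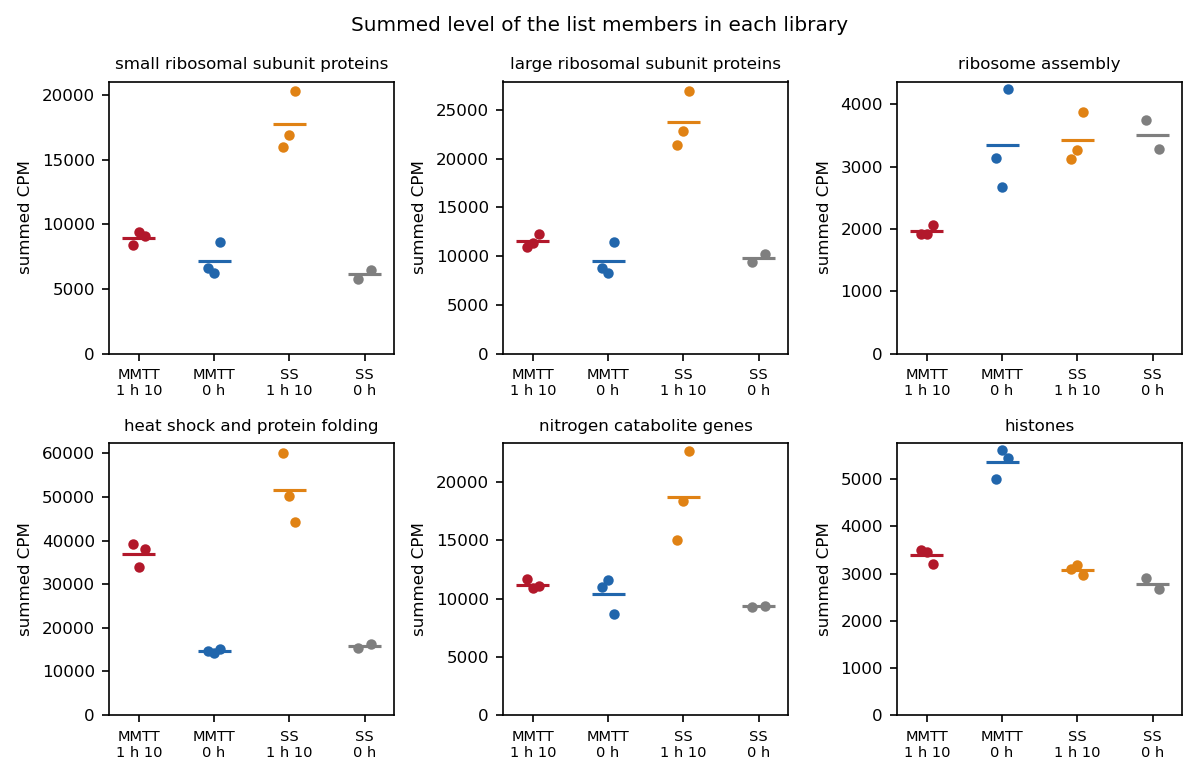
Summed CPM of gene lists in each library of MMTT and SS, with 1 h 10 min left of 0 h within each strain and MMTT left of SS; each point is 1 library and each bar the group mean. Small ribosomal subunit genes reach 8419 to 9377 CPM in MMTT at 1 h 10 min, against 16007 to 20313 CPM in SS.

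Nitrogen catabolite genes, chaperones and histones also changed less, or in the other direction, in MMTT. Of 23 nitrogen catabolite genes, 10 changed lower in MMTT and 0 higher, among them GDH1, glutamate dehydrogenase, with a difference of -2.56 (edgeR adjusted p = 2.47e-05). Of 25 chaperone genes, 12 changed lower and 1 higher, although most of the list rose in both strains (21 in MMTT and 24 in SS). SSE1 had 1315, 1214 and 1168 CPM in MMTT at 1 h 10 min, against 318, 347 and 349 CPM in MMTT at 0 h, while SS had 2273, 1892 and 1922 CPM at 1 h 10 min, against 183 and 156 CPM at 0 h (difference -1.72, edgeR adjusted p = 4.06e-06). The exception was HSP26, a small heat shock protein, with a difference of 1.55 (edgeR adjusted p = 0.000690). Of 10 histone genes 5 changed lower in MMTT, and HTB2 had a difference of -2.90 (edgeR adjusted p = 2.40e-05). The summed histone level of MMTT was 3201 to 3495 CPM at 1 h 10 min, against 5007 to 5620 CPM at 0 h, and that of SS was 2969 to 3179 CPM at 1 h 10 min, against 2667 to 2895 CPM at 0 h.

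Single genes with the smallest p-values for the difference were of several kinds. ERO1, which oxidises thiols for protein folding in the endoplasmic reticulum, had 53.3, 55.3 and 64.7 CPM in MMTT at 1 h 10 min, against 43.2, 56.6 and 48.8 CPM in MMTT at 0 h, while SS had 195, 137 and 162 CPM at 1 h 10 min, against 27.4 and 21.2 CPM at 0 h (difference -2.53, SE 0.27, edgeR adjusted p = 2.41e-07). HXK2, the main hexokinase in glucose, had 92.0, 84.9 and 119 CPM in MMTT at 1 h 10 min, against 226, 246 and 237 CPM in MMTT at 0 h, while SS had 235, 248 and 320 CPM at 1 h 10 min, against 93.0 and 99.7 CPM at 0 h (difference -2.73, edgeR adjusted p = 8.63e-07). HXK2 thus went down in MMTT and up in SS, with no overlap in either strain. QDR2, a drug exporter, had a difference of -2.11 and RTC2, a vacuolar transporter of basic amino acids, one of 1.40. IDH1 and IDH2, which rose in both strains, rose less in MMTT, by differences of -1.45 and -1.34.

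Changes that were higher in MMTT were spread over several lists in smaller numbers, against 4.96% of all genes tested. Zinc uptake and lysine biosynthesis each had 2 of 7 genes higher, and trehalose and glycogen metabolism 3 of 17, with 0 lower in each. In arginine biosynthesis 2 of 9 genes changed higher in MMTT, in histidine biosynthesis 3 of 7 and in aromatic amino acid biosynthesis 4 of 14, with 0 lower in each, and HIS4 had a difference of 1.59 (edgeR adjusted p = 0.00172). The first 2 of these pathways rose in SS too. There 7 of the 9 arginine genes and 4 of the 7 histidine genes rose and 0 fell, with medians of 0.90 and 0.63. Of the 14 aromatic genes 6 rose in SS and 2 fell. In the respiratory list 5 of 30 changed higher and 0 lower, and in the general stress list 8 of 20 changed higher and 0 lower, where CTT1 had a difference of 1.68. Among the 27 early meiotic genes, HOP1, MEK1 and DMC1 changed higher in MMTT and 0 lower, with differences of 1.44 for HOP1 (edgeR adjusted p = 0.00890) and 1.76 for DMC1 (edgeR adjusted p = 0.00608). Early genes summed to 1532, 1167 and 1336 CPM in MMTT at 1 h 10 min, against 878, 977 and 761 CPM in MMTT at 0 h, while SS had 780, 630 and 650 CPM at 1 h 10 min, against 889 and 660 CPM at 0 h. In MMTT the groups were apart, and in SS they overlapped, although 9 of the 27 genes rose in SS and 4 fell (median 0.27). The sums were not tested, and DMC1 fell in SS, with a log2 fold change of -1.71, while it did not pass in MMTT.

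**Figure D5:**
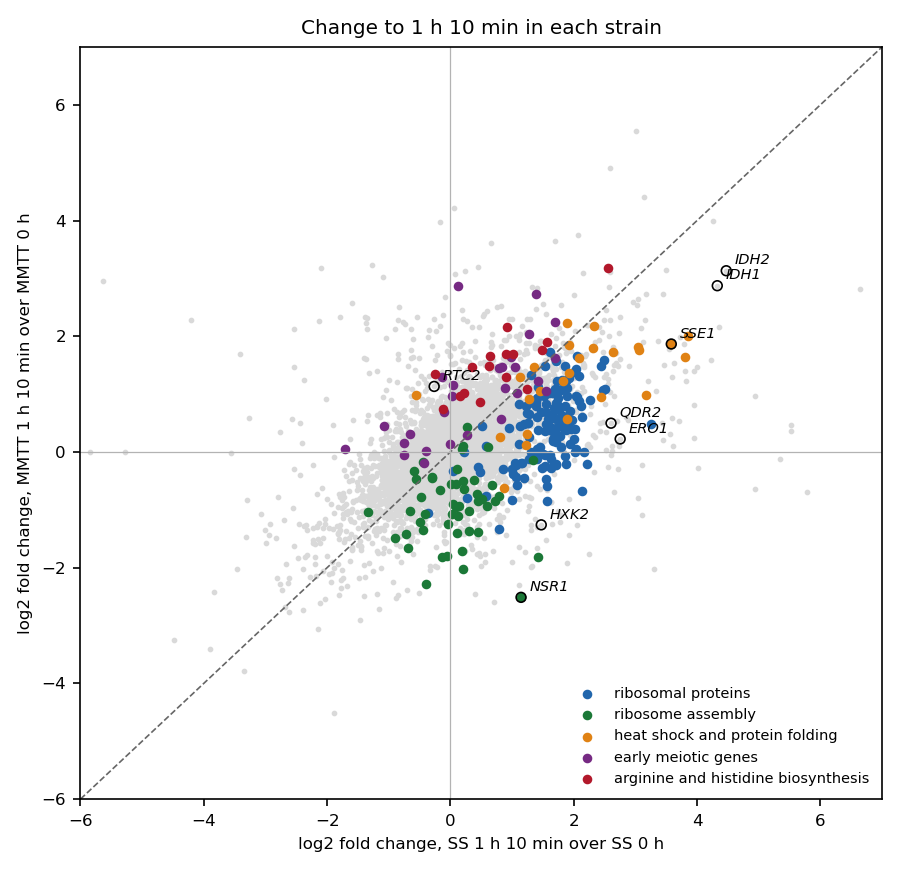
Change to 1 h 10 min in MMTT against the change in SS, both as log2 fold change over 0 h; each point is 1 gene, members of 5 sets of lists are coloured, and the dashed diagonal marks equal change. NSR1, ERO1 and HXK2 lie below the diagonal and RTC2 above it.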

How the data were processed

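RNA was sequenced from MMTT and SS cells at 9 time points, with 3 replicates each. Per the labels and the study's methods, the authors removed ribosomal RNA reads, checked reads with FastQC and aligned them with STAR. They deposited raw counts of reads per gene for 6571 genes. The R64 annotation read here lists 5906 of them and lacks 665. Versions, annotation and strand setting of the counting are not given in the sources used here, so genes that overlap on opposite strands are uncertain. A gene at the filter has 1.53 reads in the shallowest of the 6 libraries, and one at 10 CPM a counting error of 18.1%.

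From the counts, 24 MMTT libraries, those of the study's own set, which dropped 5 of the 54 as outliers, were fitted in R 4.3.3 with edgeR 4.0.16 (TMM factors, 1 mean per group, robust quasi-likelihood F test, Benjamini-Hochberg adjustment over all genes tested), keeping genes that reached 0.5 CPM in 3 or more libraries. The change in MMTT minus that in SS was fitted on 49 libraries and 18 groups, at 3 CPM. Library sizes for CPM include the TMM factors. CPM in the comparison of the strains come from the fit of both strains, so they differ slightly from those given for MMTT alone. Standard errors are approximate: the size of the log2 fold change over the square root of F. Alternatives used edgeR with other settings, and DESeq2 1.42.0. Tables were made with pandas 2.3.3 and numpy 2.4.6 under Python 3.11.15, figures with matplotlib 3.10.9, and near copies were sought with blastn 2.17.0 at 90% identity over 100 bases. The statistical steps were tested on simulated data. At an adjusted p under 0.05, the test of 1 h 10 min against 0 h recovered 76% of 2-fold and 100% of 8-fold changes. The test of the difference between strains recovered 45% and 92%, so many 2-fold differences between strains would be missed. Of the calls, 2.22% and 4.2% were false in the 2 tests.

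The 42 gene lists, 830 entries in all, were written from gene symbols. The comparison and the lists were chosen with earlier results of these data known. Genes were named by rule: the 12 higher and 12 lower with the largest change and no overlap, the arginine and histidine genes, MKT1, TAO3 and named regulators, the 4 smallest p-values of each list and of each step, and the 6 smallest for the difference between strains. Of these the text gives a selection, and other list members and, outside the lists, ASN1, CDS1, COB, CYC7, ECM11, FAS2, HAS1, HOM3 and ODC2 were named after their values were seen. Promoters were read by script as the 300 bases before the coding start in R64 (RefSeq), for 6001 genes. Equal replicate numbers were not taken to pair libraries. Values of 1 gene that the rule names are not reported here.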

Additional observations from a re-analysis of the deposited data

Results flagged for a closer look

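The effect of 1 h 10 min in sporulation medium differed between MMTT and SS by the test of the difference itself (quasi-likelihood test of edgeR, Benjamini-Hochberg adjusted) for 9 genes with a change higher in MMTT and 58 with a change lower in MMTT. Among all genes tested, with no demand on the size of the difference, the 6 with the smallest p-values differed by log2 values of -2.53 for ERO1, -2.11 for QDR2, -2.73 for HXK2, -3.66 for NSR1, -1.72 for SSE1 and 1.40 for RTC2. SSE1 and RTC2 differed by less than 4-fold and are in neither count. The SS change rests on 2 libraries at 0 h. Why the strains differed in these genes was not tested.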

How the results depend on the processing

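Between 1 h 10 min and 0 h in MMTT, 79 genes were called higher with only the 6 libraries in the fit, of which 50 were among the 51. At an absolute log2 fold change over 1 the counts were 392 and 327, and with no fold threshold 1026 and 1078. Leaving out each replicate in turn gave 42 to 58 higher and 49 to 58 lower. For the difference between the strains, DESeq2 called 16 higher in MMTT, a threshold of 1 gave 110 and 266, no fold threshold 299 and 337, and leaving out each replicate 2 to 15 higher and 38 to 68 lower. Between 1 h 10 min and 30 min the counts were 18 and 20 at a threshold of 1, 77 and 107 with no fold threshold, and 1 to 2 higher and 0 to 1 lower without each replicate. Between 1 h 40 min and 1 h 10 min edgeR called 0 under each alternative (238 genes at an unadjusted p under 0.05 in the analysis reported above, and 251 by DESeq2). Equal replicate numbers were not treated as pairs, since in no step did every number correlate over 0.1: deviations of equal numbers at 1 h 10 min and 0 h correlated at 0.014, 0.136 and -0.0848, and replicate 3 did not correlate best with its own number. Replicates 1, 2 and 3 correlated at 0.0136, 0.443 and 0.533 between 1 h 10 min and 30 min, and at 0.0514, -0.0168 and 0.483 between 1 h 40 min and 1 h 10 min. With the replicate number as a block, 54 genes were higher and 59 lower against 0 h, 11 and 62 differed between strains, and 2 and 1 differed from 30 min. Scaling moved the median of all genes from -0.01 to 0.07 with total counts. Of 2815 values of 188 named genes under the alternatives, 2739 kept direction and call, 76 in 21 genes no longer passed, RIM101, SPO21 and ARG4 among them, and 0 reversed. Of 630 list medians, 562 moved by less than the spread between replicates. A reversal was counted only in lists where more members passed in the direction of the median than did not, and 0 of these reversed. A change of sign in the other lists, some with medians near 0, was not counted. At the depth of these libraries, genes near the filter carry few reads and small changes in them were not detectable.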
